A study of Mus musculus with 26 samples.

Results

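Cdx1, Cdx2, Cdx4, T, Mixl1, Eomes, Evx1, Tbx6 and Gsc are 9 transcription factor genes of the primitive streak and the caudal end of the mouse embryo. They were chosen by name from the 21911 protein-coding genes of the annotation, and all 9 were found in it. The cells were E14 mouse embryonic stem cells, an established line, compared in 2 states. In mESC+ the cells were kept in medium with leukemia inhibitory factor (LIF), and in mESC- LIF was withdrawn and 1 µM retinoic acid (RA) was added for 4 h, so that the loss of LIF and the addition of RA cannot be told apart. RNA-seq had 3 libraries per state, open chromatin was mapped with 1 ATAC-seq library per state, and enhancer probabilities were predicted from ChIP-seq of 3 histone marks and input. The comparison asks which of the caudal and streak genes, or the chromatin around them, differed after the short RA pulse.

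The Cdx genes encode caudal-type homeobox factors that set the position of the posterior axis and act upstream of Hox genes. T (Brachyury), Eomes and Tbx6 encode T-box factors of the streak, the early mesendoderm and the paraxial mesoderm, and Mixl1, Evx1 and Gsc encode homeobox factors of the streak and the organizer. RA binds nuclear receptors that sit as dimers on direct repeats of a short half-site, and Cdx1 is a textbook RA target with receptor sites in its own locus.

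In the RNA-seq table, 3 of the 9 genes had a row: Cdx1, Eomes and Evx1. The table holds 2189 rows, all with an adjusted p under 0.1 in the authors' comparison of the states, and 9.05% of all protein-coding genes had one. Cdx1 had an authors' mean normalized count of 276 over the 6 libraries, which is 158 per kb of exon and percentile 52.7 of the listed genes. Eomes had 309, or 74.3 per kb, at percentile 36.6. Evx1 was the lowest with 42.3, or 14.7 per kb, at percentile 12.3. The median of the listed genes was 626 and 138 per kb, so that only Cdx1 lay above the median per kb. Cdx2, Cdx4, T, Mixl1, Tbx6 and Gsc had no row, which says neither that they are silent nor that they did not change. The table has no value per library, and neither a direction nor a size of change is given here.

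Of 30 other caudal and streak genes, which cover the Wnt, Fgf, Nodal and Notch pathways of the streak and the anterior Hox genes, 11 had a row in the table. An ATAC peak within 1 kb of the start was found for 25 of the 30 in mESC+ and for 24 in mESC-.

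An ATAC peak marks open chromatin, and its fold enrichment is the signal at the summit over the local background. The mESC+ list held 163484 peaks and the mESC- list 141465, and read depth is unknown. Because the libraries were called separately, each peak was given its percentile of fold enrichment within its own list, where 100 is the strongest. With 1 library per state there is no replicate check of any ATAC value below, and no test was made. Of 6 stem cell markers (Pou5f1, Nanog, Sox2, Klf4, Esrrb and Zfp42), all but Esrrb had a peak within 1 kb of the start in both lists. So did 2 of 3 endoderm markers (Sox17 and Gata6, not Gata4) and both neural markers (Pax6 and Neurod1), so that a promoter peak alone did not set the cell type apart.

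Sequences are shown for the loci at which the results turn. The 250 bases before the annotated start of Cdx4 and of T stand for the genes with the strongest and the weakest promoter peaks, by the best peak of each gene that had any. They come from RefSeq (GRCm38), read 5′ to 3′ on the strand of the gene, with each CpG in capitals.
Cdx4, GRCm38 chrX:103321148-103321397, plus strand: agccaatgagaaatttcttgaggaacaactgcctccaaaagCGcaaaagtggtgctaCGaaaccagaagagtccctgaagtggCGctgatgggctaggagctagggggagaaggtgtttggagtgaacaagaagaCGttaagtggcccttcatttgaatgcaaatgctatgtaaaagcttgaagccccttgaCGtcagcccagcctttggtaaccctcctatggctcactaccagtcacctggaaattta
T, GRCm38 chr17:8434173-8434422, plus strand: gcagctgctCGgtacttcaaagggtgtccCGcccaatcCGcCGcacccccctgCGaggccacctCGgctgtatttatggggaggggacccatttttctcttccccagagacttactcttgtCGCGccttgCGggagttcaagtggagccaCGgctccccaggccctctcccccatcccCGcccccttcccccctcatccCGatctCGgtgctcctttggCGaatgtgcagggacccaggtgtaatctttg
The Cdx4 window holds 5 CpGs and the T window 14, against a median of 6 over 32851 promoters. The number of CpGs and the strength of the peak thus went in opposite directions for this pair. Among the other matched genes Gsc had 22, Cdx2 13, Evx1 10, Eomes 8 and Tbx6 6.

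Next come 300 bases around the mESC- summit of 3 peaks outside exons that were present in both lists and hold a receptor-type direct repeat with no mismatch. They were picked, after values had been seen, as the largest difference towards mESC- of Cdx4 and of Eomes and the closest such peak of T. A further 3 shared mESC- peaks with summits outside exons hold one as well, 2 of Cdx1 and 1 of Tbx6, and are not shown. Such a repeat is a pair of half-sites, each AGGTCA or AGTTCA or GGGTCA or GGTTCA, in the same orientation, spaced by 5, 2 or 1 bases, on either strand. Elsewhere 1 mismatch over both half-sites was allowed. The half-sites are in capitals and read TGACCT where the repeat lies on the minus strand.
Cdx4, GRCm38 chrX:103314162-103314461, plus strand: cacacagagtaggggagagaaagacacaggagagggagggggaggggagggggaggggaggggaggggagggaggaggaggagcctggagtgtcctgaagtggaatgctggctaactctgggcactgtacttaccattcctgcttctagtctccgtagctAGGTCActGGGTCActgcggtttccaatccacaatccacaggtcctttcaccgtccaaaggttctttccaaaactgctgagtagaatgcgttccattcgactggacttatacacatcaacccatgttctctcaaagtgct
T, GRCm38 chr17:8429972-8430271, plus strand: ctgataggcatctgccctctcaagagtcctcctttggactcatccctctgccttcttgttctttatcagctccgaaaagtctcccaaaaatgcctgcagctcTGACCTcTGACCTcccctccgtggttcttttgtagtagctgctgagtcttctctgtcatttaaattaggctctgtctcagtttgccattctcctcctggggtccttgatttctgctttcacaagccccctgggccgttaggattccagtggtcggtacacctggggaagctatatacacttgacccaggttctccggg
Eomes, GRCm38 chr9:118456058-118456357, plus strand: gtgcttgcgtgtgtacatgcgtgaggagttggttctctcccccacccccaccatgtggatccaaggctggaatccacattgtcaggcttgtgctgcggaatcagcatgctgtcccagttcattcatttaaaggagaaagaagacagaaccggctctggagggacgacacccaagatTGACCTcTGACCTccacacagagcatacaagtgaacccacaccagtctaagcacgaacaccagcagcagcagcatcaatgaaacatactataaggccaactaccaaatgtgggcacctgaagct
The Cdx4 repeat, AGGTCActGGGTCA, has a spacer of 2 bases, and the T and Eomes repeats are the same 13 letters, AGGTCAgAGGTCA, with a spacer of 1. A match is a description of the letters and not evidence of a bound receptor. None of the 7 matched promoter windows (all but those of Mixl1 and Cdx1) held a repeat, against 5.24% of all promoters, and nothing about the receptors follows from that.

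At the starts themselves, 8 of 9 genes had a peak within 1 kb in each list, all but Evx1. Over all protein-coding genes 67% had one in mESC+ and 65.7% in mESC-. Cdx4 had by far the strongest of the Cdx promoters. Its peak 35 bp upstream (chrX:103321225-103321528 in mESC+) had a fold enrichment of 14.9 in mESC+ and 13.0 in mESC-, at percentiles 93.6 and 90.6. A weaker peak in the Cdx4 exon, 0.627 kb downstream, went from percentile 31.0 to 8.17. At Cdx2 a peak 72 bp downstream, in the 5′ UTR, had a fold of 5.80 and 6.04, at percentiles 39.9 and 43.5. Cdx2 and the main Cdx4 peak thus differed by 3.60 and -2.99 points. In lists of equal length, which hold the 100000 strongest peaks of each state, the differences were 18.3 and -2.83, so that only Cdx4 kept its place under both.

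Cdx1 had only weak peaks near its start. The stronger one, 497 bp upstream (chr18:61036622-61036781 in mESC+), had a fold of 4.70 in mESC+ and 5.48 in mESC-, at percentiles 20.0 and 33.8. The other, 0.035 kb upstream in mESC+ and 0.137 kb in mESC-, was at percentiles 4.95 and 0.671. Inside the gene, an intronic peak 1.02 kb downstream (chr18:61034927-61035264) was at percentile 59.3 in mESC+ and 71.2 in mESC-. The upstream peak and the intronic peak were both higher in mESC-, by 13.8 and 11.9 points, and both hold a direct repeat. The intronic one has a spacer of 2 bases and no mismatch, and the upstream one a spacer of 1 and 1 mismatch. In lists of equal length, the intronic peak was at percentiles 33.4 and 59.2 and the difference thus passed 20 points. In those lists 12.1% of all pairs were higher by 20 points or more, beside 7.09% in the full lists. With the full lists, the upstream pair was also the largest difference towards mESC- among the 28 pairs of Cdx1. The other Cdx1 pairs with a repeat, 73.4 and 22.3 kb downstream and 14.1 kb upstream, differed by -0.72, -9.79 and 0.47 points. A further peak in a Cdx1 intron, 15.1 kb downstream and without a repeat, was at percentiles 82.1 and 92.1, higher by 10.0 points.

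Of the T-box genes, T had the least open start. In mESC+ it had 2 peaks, 0.353 kb upstream with a fold of 3.87 and 0.441 kb downstream with 3.41, at percentiles 5.53 and 2.06. In mESC- it had 1 peak, 0.993 kb upstream, with a fold of 4.14 at percentile 8.24. None of the 3 overlapped a peak of the other list. Eomes had a peak 483 bp downstream with a fold of 6.96 in mESC+ and 6.50 in mESC-, at percentiles 54.4 and 47.4. Tbx6 had one 686 bp upstream with 6.09 and 5.84, at percentiles 42.4 and 37.5. The differences, -6.94 and -4.90 points, were small and turn to 0.23 and 5.74 in lists of equal length, so neither gives a direction.

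The promoter peaks of Mixl1 and Gsc were much lower in mESC-. Mixl1, 324 bp downstream in its exon (chr1:180696505-180697476 in mESC+), had a fold of 12.1 in mESC+ and 6.73 in mESC-, at percentiles 86.0 and 52.4. Gsc, 23 bp downstream in its 5′ UTR (chr12:104473210-104473404 in mESC+), had 7.71 and 5.23, at percentiles 60.8 and 26.6. The differences were -33.7 and -34.2 points. Near both starts the lists also divide the signal differently. In mESC- the Mixl1 region has a further peak 0.423 kb upstream at percentile 23.1. At Gsc, the mESC+ list has a further peak 0.326 kb downstream at percentile 5.51 where mESC- has a single peak of 540 bp.

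Of the 7 genes with an overlapping pair of promoter peaks, which leaves out T and Evx1, 2 were lower by 20 points or more in mESC- and 0 were higher by that much. Over the 14145 protein-coding genes with such a pair, 5.8% were lower by 20 points or more and 2.47% were higher. The median difference was -0.47 points, with quartiles of -5.86 and 3.45. Mixl1 and Gsc were thus among the 5.8%, and the other 5 had differences between -6.94 and 13.8. Over all pairs, at promoters or not, 8.63% with a mESC+ percentile at or over 80 fell by 20 points or more. Under 80 it was 17.8%. Rises of that size made up 0% and 9.83% in the same order. Gsc was at percentile 60.8 in mESC+ and Mixl1 at 86.0, and the promoter shares were not split by percentile. Over all genes the median percentile of the promoter pair was 79.8 in mESC+ and 78.5 in mESC-. Cdx4 lay above that in both states and Mixl1 in mESC+ alone. In lists of equal length Mixl1 kept its direction, with percentiles 77.2 and 32.6. The Gsc peak was among the 100000 in mESC+ alone, and the upstream Cdx1 peak in mESC- alone.

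**Figure D1:**
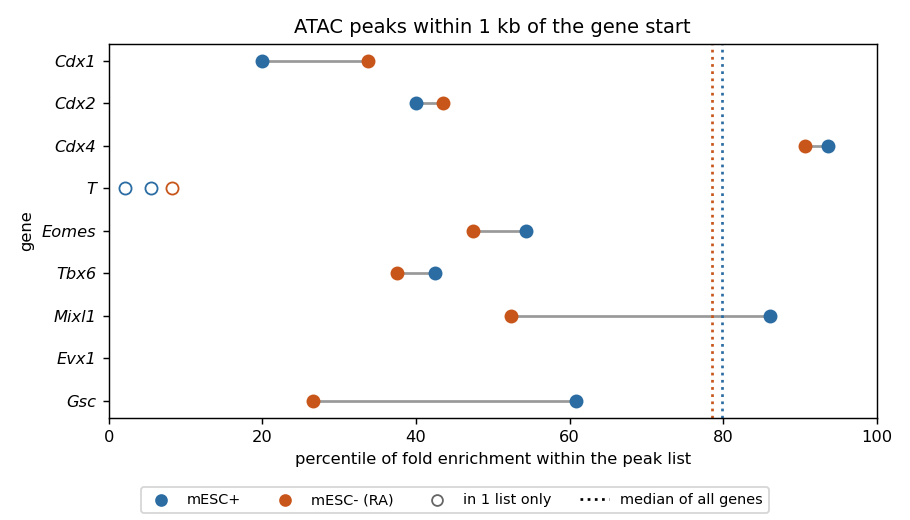
Percentile of fold enrichment (x axis, 0 to 100 within each peak list) of the strongest promoter peak pair of each gene (y axis), blue for mESC+ and orange for mESC-, 1 library each. Open circles are peaks found in 1 list only, and dotted lines are the medians over all genes with a pair. Mixl1 and Gsc show the widest gaps (-33.7 and -34.2 points), Cdx1 is higher in mESC-, and Evx1 has no peak within 1 kb.

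Evx1 had a row in the RNA-seq table but no peak within 1 kb of its start in either list. Its nearest shared peaks lay within the gene. The one 1.45 kb downstream, in an intron, was at percentile 40.0 in mESC+ and 14.6 in mESC-. The one 4.54 kb downstream, in the 3′ UTR, was at percentiles 49.5 and 14.6. These differences, -25.3 and -34.9 points, were both past 20 points. A peak 7.44 kb upstream was stronger and closer in the 2 lists, with a fold of 10.3 and 9.18, at percentiles 78.5 and 73.9. Evx1 lies at the end of the Hoxa cluster, and its largest difference towards mESC- was a peak in a Hoxa11 intron 69.4 kb upstream, at percentiles 1.19 and 32.8.

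Within 100 kb of the 9 starts lay 512 peaks, 277 of mESC+ and 235 of mESC-. The counts per gene ran from 22 to 40 in mESC+ and from 19 to 32 in mESC-, beside medians of 21 and 18 over all protein-coding genes. Eomes had the most in both lists, with 40 and 32, and Evx1 the fewest, with 22 and 19. Tbx6 had 39 and 29, Cdx1 36 and 31, T 34 and 26, Cdx2 32 and 31, Cdx4 27 and 23, Gsc 24 and 21, and Mixl1 23 and 23. Mixl1 was the only one without fewer peaks in mESC-. Many of the peaks are closer to another gene, since one of the 9 was the nearest start for 91 of the 277 and 76 of the 235. Eomes, with 25 and 21, T with 17 and 13, and Gsc with 15 and 12 had the most peaks of their own, and Mixl1 had 1 and 3.

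Of the 277 mESC+ peaks, 68 overlapped no mESC- peak, which is 24.5% (exact Clopper-Pearson 95% interval 19.6 to 30.1%) beside 26.1% of the whole list. Of the 235 mESC- peaks, 30 overlapped no mESC+ peak, or 12.8% (8.78 to 17.7%) beside 14.1%. The intervals cover counting error only, and both hold the share of the whole list. Most of these peaks were weak, with median percentiles of 18.3 and 16.1, and the same medians over the whole lists were not computed. Of their mESC+ peaks, T, Eomes and Tbx6 had 10 of 34, 12 of 40 and 11 of 39 in that list alone. Evx1 and Gsc had 8 of 22 and 7 of 24. Cdx1, Cdx2, Cdx4 and Mixl1 had 5 of 36, 5 of 32, 7 of 27 and 3 of 23. For mESC- peaks the counts were 2 of 26, 4 of 32 and 2 of 29 for T, Eomes and Tbx6. Evx1 and Gsc had 5 of 19 and 5 of 21. Cdx1, Cdx2, Cdx4 and Mixl1 had 2 of 31, 4 of 31, 2 of 23 and 4 of 23.

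**Figure D2:**
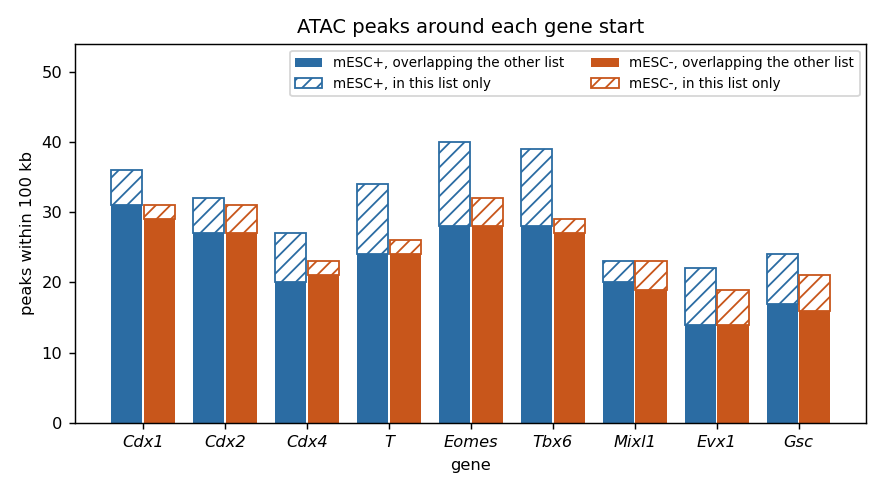
Number of ATAC peaks within 100 kb of each gene start (y axis) by gene (x axis), blue for mESC+ and orange for mESC-, 1 library each. Filled bars are peaks that overlap the other list and hatched bars are those found in 1 list only, which are 68 of 277 in mESC+ and 30 of 235 in mESC-.

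Only 9 of the 68 peaks in mESC+ alone, and 2 of the 30 in mESC- alone, reached the 50th percentile. The 2 in mESC- lay near T and Eomes. At T, a peak 27.3 kb downstream (chr17:8461559-8461814) had a fold of 7.18 at percentile 58.0, between genes and with T as its nearest start. At Eomes, a peak 49.0 kb downstream (chr9:118527156-118527351) had a fold of 7.86 at percentile 64.2, in an exon of Golga4.

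Of the 9 in mESC+, 3 belonged to T. The one 10.3 kb upstream (chr17:8424082-8424211) was at percentile 51.7, and those 74.1 and 99.7 kb downstream were at percentiles 56.4 and 62.6. Cdx2 had 2 peaks at percentile 67.0, 22.7 kb downstream and 88.0 kb upstream, the latter in a Flt3 intron and with a repeat. Cdx1 had one 50.1 kb upstream, Cdx4 one 64.0 kb downstream in a Chic1 intron, and Gsc one 92.1 kb downstream in a Serpina3m intron, all 3 at percentile 51.7. Tbx6 had one 33.4 kb upstream at percentile 60.0. The peaks of Cdx1, Cdx4, Gsc and the upstream one of T share the same fold, 6.74, and the same -log10 q, 7.94. The folds of such peaks thus took discrete values.

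Among peaks present in both lists, 201 mutual pairs lay near the 9 genes. Of these, 15 (7.46%) were higher by 20 points or more in mESC- and 32 (15.9%) were lower, beside 7.09% and 15.2% of all 117870 pairs. The median difference was -2.99 points, beside -2.49 over all pairs. Over all 9 genes the neighbourhoods thus lay close to the genome-wide background. The mESC+ list is longer than the mESC- list. Among the 100000 strongest peaks of each list, which also leaves out weak peaks of both, the split turned, with 22 of 124 pairs higher (17.7%) and 13 lower (10.5%), beside 12.1% and 12.6% of all pairs. The lean towards mESC+ was thus not seen in those lists, and whether length or the weak peaks made the difference was not tested. By family, with the full lists, 4 of 74 Cdx pairs were higher and 13 lower, 7 of 79 T-box pairs were higher and 10 lower, and 4 of 48 pairs of Mixl1, Evx1 and Gsc were higher and 9 lower. The median difference was -2.85, -1.94 and -5.12 points in the same order. By gene, Cdx2 (2.93) and Eomes (0.47) had medians above 0, and Evx1 (-7.25) and Cdx1 (-5.45) the lowest. Of the 33 pairs within 10 kb of a start, 4 were higher and 8 lower, or 12.1% (exact interval 3.40 to 28.2%) and 24.2% (11.1 to 42.3%). Over all 38316 pairs within 10 kb of any protein-coding start the shares were 5.14% and 12.3%, each within its interval.

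**Figure D3:**
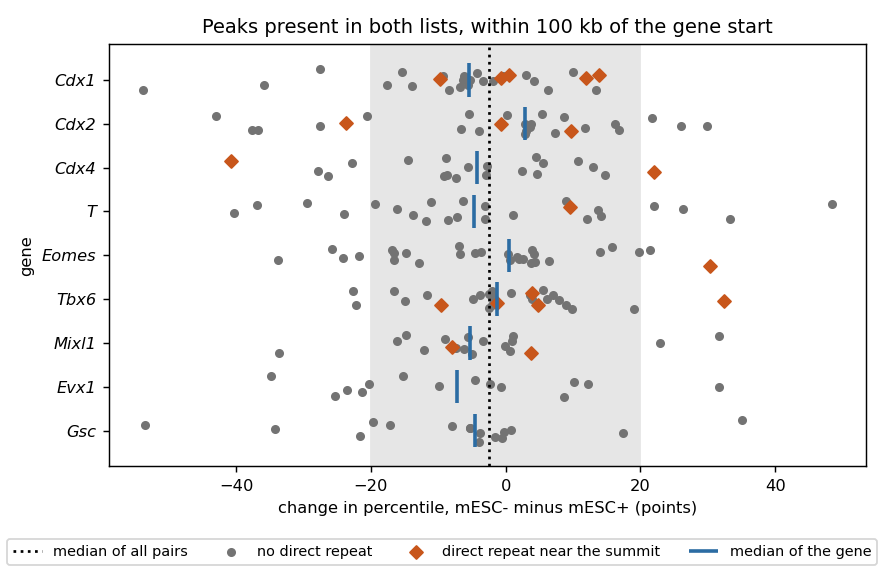
Difference in percentile between the states (x axis, mESC- minus mESC+, in points) for each of the 201 peak pairs, by gene (y axis), 1 library per state. Diamonds hold a direct repeat in the 300 bp around the mESC- summit, blue bars are medians per gene, the dotted line is the median of all pairs, and the grey band spans -20 to 20 points. The T pair 13.5 kb upstream lies farthest to the right, at 48.4 points.

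The largest difference towards mESC- of any pair was at T. A peak 13.5 kb upstream (chr17:8420834-8420993 in mESC+), in an intron of the neighbouring gene T2, had a fold of 5.62 in mESC+ and 11.3 in mESC-, at percentiles 36.3 and 84.7. Of the 24-letter words in the 300 bp around its summit, 43.0% occur more than once in the genome, and the part of read placement in this value was not tested. The mESC+ fold of this peak and its -log10 q, 5.73, recurred at the Eomes peak 22.0 kb upstream and at peaks of Cdx1 and Cdx4. Discrete values thus occurred among shared peaks as well. A further peak in T2, 18.7 kb upstream, went from percentile 15.9 to 49.2, and 0 of its words occur more than once. Its mESC+ fold, 4.49, recurred at peaks of Cdx1 and Cdx2, and its mESC- fold, 6.52, at peaks of Cdx4 and Mixl1. In mESC+, folds of 4.49, 5.05 and 5.62 stood at percentiles 15.9, 26.3 and 36.3. Among weak peaks, a small difference in fold can thus be one of many points. In the same stretch, the peak 36.3 kb upstream went the other way, from percentile 55.9 to 18.9. Closest to T among the shared peaks, the one 4.27 kb upstream, whose sequence is given above, had a fold of 8.61 and 9.94, at percentiles 68.5 and 78.1. In lists of equal length it was at 48.6 and 69.1. The neighbouring pair 4.69 kb upstream went the other way, from percentile 19.1 to 3.03. The strongest T peak in both lists lay 34.5 kb downstream, with a fold of 17.8 in mESC+ and 13.3 in mESC-, at percentiles 97.8 and 91.5.

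At Eomes the largest difference towards mESC- was the peak 22.0 kb upstream (chr9:118456142-118456306 in mESC+), between genes and with Eomes as the nearest start. It had a fold of 5.62 and 8.27, at percentiles 36.3 and 66.6, and its sequence is given above. The repeat lies within the peak in both lists, and 3.25% of its words occur more than once in the genome. The peak 9.82 kb upstream went from percentile 39.0 to 60.4, while that 43.6 kb downstream, in a Golga4 intron, went from percentile 46.7 to 12.9.

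At Cdx4 the largest difference in that direction was the peak 7.11 kb upstream (chrX:103314215-103314368 in mESC+), again shown above. It was weak in both lists, with a fold of 4.24 and 5.42, at percentiles 11.2 and 33.2. Around its summit, 11.2% of the words occur more than once in the genome. Nearby, the peak 9.01 kb upstream went from percentile 40.8 to 13.0, with 20.2% of its words occurring more than once. The peak 9.48 kb upstream was strong in both, with a fold of 13.4 and 14.6, at percentiles 90.0 and 94.5, and was the strongest Cdx4 peak of the mESC- list. The promoter and this peak were thus separate strong peaks in both states, with weaker peaks between them that differed in both directions.

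For Tbx6 the largest difference towards mESC- was 7.85 kb upstream, in an intron of Gdpd3, at percentiles 11.5 and 43.8. It holds a repeat with 1 mismatch, and 35.4% of its words occur more than once in the genome, so that it shares the limit of the T peak in T2. For Cdx2 it was 30.0 kb downstream, between Cdx2 and Pdx1 and closer to Pdx1, at percentiles 13.6 and 43.5. For Mixl1 it was 57.2 kb downstream, 1276 bp from the start of Lin9, at percentiles 32.4 and 64.0. For Gsc it was inside the gene, 1.16 kb downstream in an exon, at percentiles 3.07 and 38.1. Gsc thus had a lower peak at its start and a higher one in its exon in mESC-, both weak in that list. For each of the 9 genes, the pair with the largest difference towards mESC- had its mESC+ peak outside the 100000 strongest.

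The largest differences towards mESC+ ran from -53.8 to -22.6 points over the 9 genes. The widest were at Cdx1, 29.5 kb upstream in a Pdgfrb intron, from percentile 63.6 to 9.83, and at Gsc, 65.5 kb upstream between genes, from percentile 62.6 to 9.03. At Cdx2 the peak was 84.7 kb downstream, nearest to Gsx1, from percentile 54.5 to 11.5. At Cdx4 it was 93.9 kb upstream, from percentile 70.9 to 30.1, and at T 93.5 kb upstream, nearest to Prr18, from percentile 65.5 to 25.3. At Tbx6 it was 91.2 kb upstream in the UTR of Slx1b, from percentile 30.9 to 8.28. For Mixl1 and Evx1 the largest was the promoter peak and the 3′ UTR peak described above. Only in those 2 genes did it lie within 10 kb of the start. Around the summits of these peaks, 27.4% of the words occur more than once in the genome at Cdx4 and 20.2% at Gsc. At the other genes it was 0%, and the part of read placement was not tested.

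**Figure D4:**
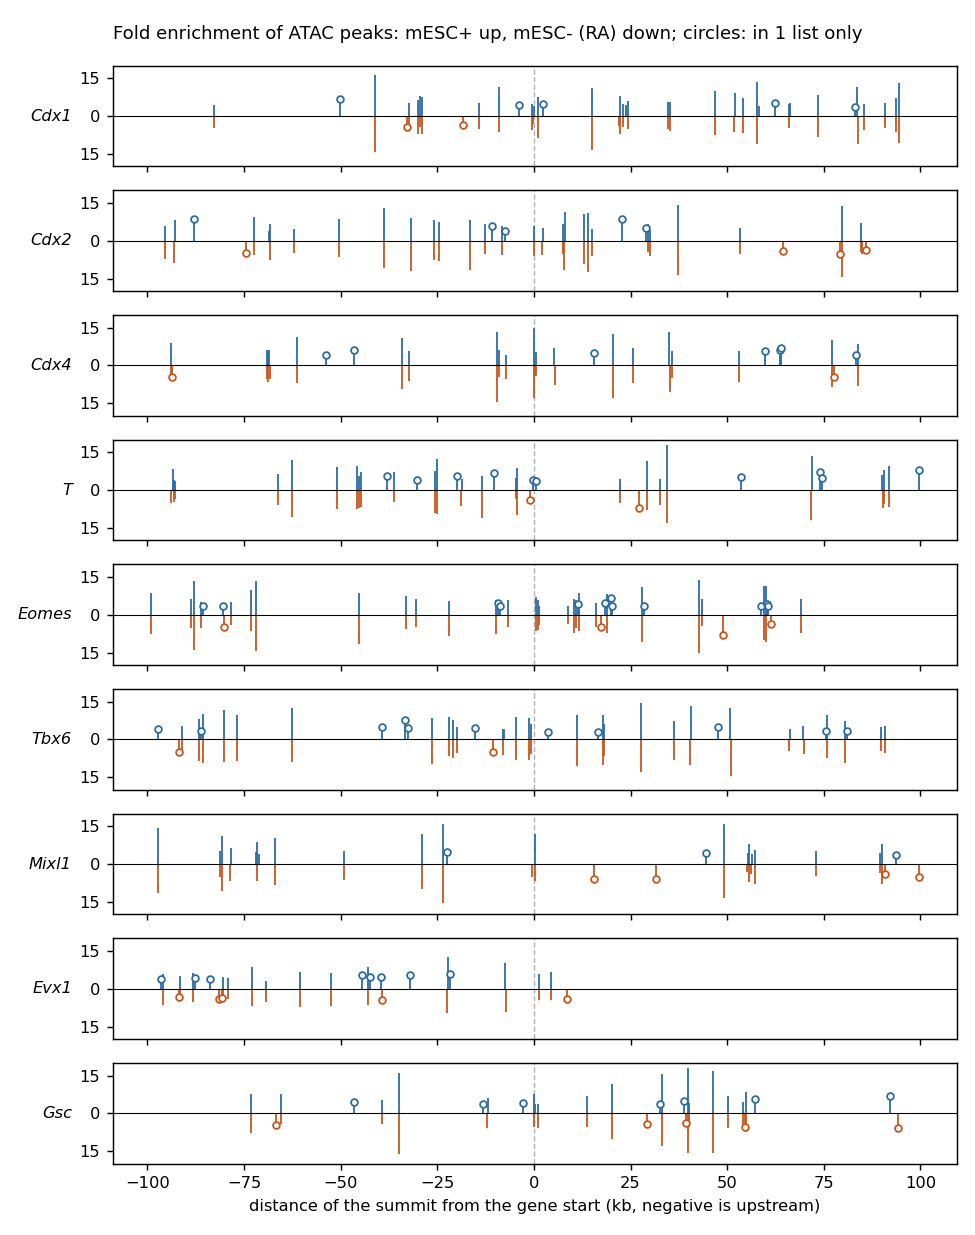
Position of each peak summit relative to the gene start (x axis, kb, negative is upstream) and its fold enrichment (y axis), with mESC+ upwards in blue and mESC- downwards in orange, 1 library each. Circles mark peaks found in 1 list only. The tall bars at the Cdx4 start and 34.5 kb downstream of T appear in both states, and Evx1 has no peak beyond 8.64 kb downstream.

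Direct repeats were found near the summits of 27 of 277 mESC+ peaks (9.75%, exact interval 6.52 to 13.9%) and 22 of 235 mESC- peaks (9.36%, 5.96 to 13.8%). Over the whole lists the shares were 7.99% and 8.93%, within both intervals. Cdx1 had 7 and 5, Tbx6 had 4 and 5, and Gsc had 0 in both lists. Of the 201 pairs, 19 held a repeat around the mESC- summit. Of these, 11 were higher in mESC- and 8 lower, with a median difference of 3.75 points, beside -3.58 for the 182 pairs without one. Over all pairs the medians were -1.15 for the 9641 with a repeat and -2.51 for the 108229 without, and 11.3% and 6.72% were higher by 20 points or more. Of the 19 member pairs, 3 were higher by that much (15.8%, exact interval 3.38 to 39.6%, which holds 11.3%) and 2 were lower. The largest difference towards mESC- held a repeat in 4 of the 9 genes (Cdx4 and Eomes, and with 1 mismatch Cdx1 and Tbx6). The largest towards mESC+ held one in 1 (Cdx4, with 1 mismatch). These pairs were picked by their differences, and the same share over all genes was not computed, so nothing about repeats follows from these counts. A single repeat without mismatch and with a spacer of 5 bases, AGGTCAggaacAGGTCA, was found near an Eomes peak of mESC- alone, 61.4 kb downstream in a Golga4 intron, where the peak was at percentile 3.85.

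No region of the authors' dynamic enhancer list, which holds 327 regions with an enhancer probability per state, lay within 100 kb of any of the 9 starts. Over all protein-coding genes 3.8% had one, so that 0 of 9 is close to the background share. The nearest was 115 kb from Cdx4 (chrX:103435901-103442300), whose enhancer probability was 0.930 in the mESC+ state against 0.00890 in mESC-. The next was 200 kb from Cdx1 (chr18:61236001-61236900), whose values were 0.00890 in the mESC+ state against 0.846 in mESC-. For Tbx6 and Evx1 the nearest regions were 277 and 489 kb away, and for the other 5 they lay beyond 1 Mb. Among the 30 other caudal and streak genes, 2 had a region within 100 kb, namely Hoxb1 and Wnt3a, which are named here after their values were seen.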

How the data were processed

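Members and gene lists were chosen with earlier results of these data known. The 9 genes are named in full, with their promoter peaks, every peak found in 1 list only at or above percentile 50, and the shared pair with the largest difference in each direction. The authors made the peak lists with MACS2 from BWA-MEM alignments to GRCm38 without duplicates, 1 library at a time, with parameters not given in the sources used here. Deposited columns hold the fold over local background (a ratio), -log10 p and -log10 q. The authors' enhancer probability is a fraction between 0 and 1 from CRUP, the random forest predictor of the study, and its list keeps regions that differ between the states. The authors' RNA-seq table, made with DESeq2, gives a mean signal (normalized count) per gene over 6 libraries and no value per library. It also holds their fold change, its error, statistic, p and adjusted p, and the dynamic enhancer list holds a p-value. None of these comparison columns was used for a result. The adjusted p was read once, to test under which limit rows were kept.

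A peak was given to a gene when its summit lay within 100 kb of the most 5′ annotated start (GENCODE M21), and a promoter peak within 1 kb. Peaks sharing 1 bp or more counted as overlapping. Pairs were overlapping peaks whose summits were each other's nearest. This pairing, the grouping by family and by distance, the words of 24 letters, the percentiles of single pairs in lists of equal length and the sequences shown were chosen after values had been seen. Python 3.11.15, NumPy 2.4.6, pandas 2.3.3 and SciPy 1.17.1 were used, and the scripts were tested on simulated data. No column of another sample was found. Promoter sequences came from a RefSeq table of promoter windows, in which 7 of the 9 genes were matched.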

Additional observations from a re-analysis of the deposited data

How the results depend on the processing

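Of 27 alternative values, 15 stayed close to the reported one and 12 moved. The count of 512 peaks became 285 within 50 kb, 81 within 10 kb, 223 at a -log10 q of at least 10, and 313 among the 100000 strongest peaks of each list. With those 100000 peaks, 22.5% of the mESC+ and 19.0% of the mESC- peaks overlapped no peak of the other list. The same shares over all peaks of those lists were not computed, so nothing about these genes follows from them. Among the pairs, 13 were lower by 20 points or more in mESC- and 22 higher, in place of 32 and 15. More pairs were then higher than lower. Within 250 bp, 4 genes had a promoter peak in each list, and at a -log10 q of at least 10, 5 had one in mESC- and 6 in mESC+. Without mismatches, 9 mESC+ and 7 mESC- peaks held a repeat. Within 250 kb, 2 dynamic regions were found, near 2 of the 9 genes, beside 8.81% of all protein-coding genes with one. The window and threshold alternatives change how much is counted by construction, and the cause of the other moves was not tested. No paired analysis was possible because no value per library was given for RNA, and each chromatin assay had 1 library per state, so no replicate could be left out either. Read depth is unknown, and a difference between the states cannot be told apart from one between the 2 libraries.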
